A study of Mus musculus with 12 samples.

Results

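The Igsf21 locus is a stretch of 335 bp at chr4:139783570-139783904 (mm9, counted from 1) inside the first intron of Igsf21, a gene on the minus strand of chromosome 4. Every CpG cytosine in the stretch was a member, on both strands, provided that none of the 12 samples had fewer than 10 read-outs there. This gave 18 cytosines, which form 9 CpG dyads, out of 384 CpG cytosines in the 14 loci that were sequenced. The locus was chosen by the values themselves, because its mean share of C read-outs differed most between Tet2kd and v6.5. The values of that contrast are therefore given below as a description, without a test.

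v6.5 is a line of mouse embryonic stem cells, and the study compared the wild-type parental cells (v6.5) with v6.5 cells carrying a stable knock-down of Tet2 (Tet2kd). The knock-down came from a pSUPER-puro plasmid expressing a short hairpin RNA, introduced by electroporation and selected with puromycin on feeder cells, after which single clones were grown. Cells were kept in medium with serum and LIF, and each genotype was represented by 3 independent cultures. The DNA of each culture was split, and the parts were measured by bisulfite sequencing (BS-seq) and by oxidative bisulfite sequencing (oxBS-seq), in which KRuO4 oxidizes 5hmC before the bisulfite step. The sample titles of v6.5 also carry the word knock-down, while their genotype entry reads wild-type, and the genotype entry was followed. The protocol names plasmids against Tet1 and against Tet2, and it does not say which clone or how many clones were used. Tet2 itself was not measured in these files, so the knock-down could not be checked here. The paper's methods name a Tet2 hairpin plasmid and report that knock-down efficiency was assessed by quantitative PCR and western blot. The sources do not say whether the parental cells were also selected or cloned.

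In mammals, DNA methyltransferases add a methyl group to cytosine, mostly in CpG dinucleotides, where both strands carry a cytosine that can be modified. TET enzymes, TET2 among them, oxidize 5-methylcytosine (5mC) to 5-hydroxymethylcytosine (5hmC) and further to 5-formylcytosine and 5-carboxylcytosine, a route along which methylation can be removed. BS-seq reads 5mC as well as 5hmC as C, and unmodified cytosine, 5-formylcytosine and 5-carboxylcytosine as T. In oxBS-seq 5hmC is also read as T once it has been oxidized, so the share of C read-outs mainly reports 5mC, and BS-seq minus oxBS-seq mainly reports 5hmC. Igsf21 encodes a cell-surface protein of the immunoglobulin superfamily that is known from synapses.

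The 250 bases of the plus strand that hold all 9 CpGs, chr4:139783626-139783875 in mm9, are printed here with each CpG in capitals, since the levels below differ along this stretch.
Igsf21 CpGs: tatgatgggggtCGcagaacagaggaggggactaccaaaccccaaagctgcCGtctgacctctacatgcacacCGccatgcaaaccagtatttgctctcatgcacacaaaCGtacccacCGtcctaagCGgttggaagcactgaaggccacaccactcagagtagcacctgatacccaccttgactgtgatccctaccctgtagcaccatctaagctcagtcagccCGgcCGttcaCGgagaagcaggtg

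The CpGs are numbered 1 to 9 in the order printed. The first 6 lie within 116 bp, a gap of 98 bp without a CpG follows, and CpGs 7, 8 and 9 lie close together at its far side. Igsf21 runs from 139582761 to 139802699 on chromosome 4 with 10 exons in the annotation, and its transcription start is 18.8 kb from the nearer end of the locus. The intron is 88.7 kb long. The locus lies 18.3 kb from exon 1 and 70.1 kb from exon 2 and overlaps no exon or UTR. Its GC content was 55.2%, the fourth highest of the 14 loci, and its ratio of observed to expected CpGs was 0.359, the third lowest.

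Read-outs were plentiful at most of the members. At 15 of the 18 cytosines each sample had between 1092 and 14247 read-outs, so that the Wilson 95% confidence interval of a share was 1.14 to 5.78 percentage points wide. The plus-strand cytosine of CpG 4 and both cytosines of CpG 5 lie where coverage drops in the middle of the stretch, with 78 to 926 read-outs and intervals 5.82 to 20.2 points wide. These intervals cover counting error only, because the reads are PCR copies without molecular identifiers. Plus-strand and minus-strand read-outs were not balanced. The ratio of plus to minus median read-outs was 0.759 to 2.01 in the 6 v6.5 samples, 0.157 to 0.399 in Tet2kd BS-seq and 1.19 to 4.40 in Tet2kd oxBS-seq. The locus mean below weights all 18 cytosines equally for that reason.

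About as many BS-seq read-outs were C as T in the parental cells. The mean share of C over the 18 cytosines was 50.9%, 51.3% and 51.9% in the 3 v6.5 cultures (51.4% ± 0.53, SD, n = 3). In the 3 Tet2kd cultures it was 72.3%, 73.0% and 76.0% (73.8% ± 2.0, SD, n = 3). The genotypes did not overlap, and the means differed by 22.4 percentage points.

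The gap was wider in oxBS-seq. The v6.5 cultures had 43.5%, 42.4% and 45.1% C (43.6% ± 1.4, SD, n = 3), and the Tet2kd cultures had 71.7%, 72.4% and 72.1% C (72.1% ± 0.40, SD, n = 3). The difference between the means was 28.4 percentage points, again with no overlap. It was 25.1 points on the plus strand alone and 31.8 points on the minus strand alone.

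All 18 cytosines were higher in each Tet2kd BS-seq sample than in any v6.5 BS-seq sample. Over all 384 CpG cytosines this held for 56.2%. The same was true of all 18 in oxBS-seq, against 49.2% of all 384. Most of the sequenced loci had been picked for differential methylation, so the shares over all 384 are not a general CpG background. Since the locus was selected on this contrast, nothing is read from these shares. Among the other 13 loci, the next largest differences in BS-seq were 19.5 percentage points at Letmd1 and 17.7 points at Gm11949. In oxBS-seq the next largest was 21.6 points at the locus near Pvt1.

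**Figure D1:**
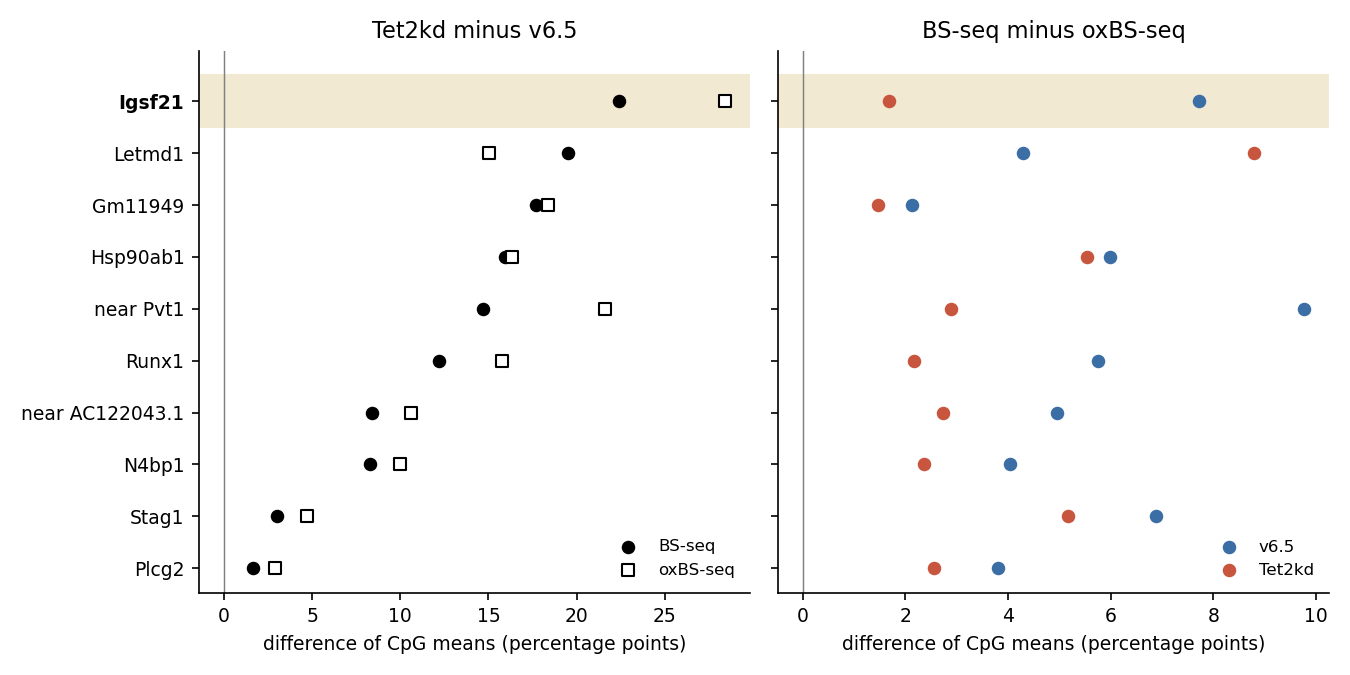
CpG means of the 10 loci with the largest difference between genotypes in BS-seq, out of 14. The left panel gives Tet2kd minus v6.5 in percentage points of C read-outs for BS-seq (filled circles) and oxBS-seq (open squares), and the right panel gives BS-seq minus oxBS-seq in percentage points for v6.5 (blue) and Tet2kd (red). Each symbol is a mean of 3 cultures. The shaded row at the top is the Igsf21 locus, at 22.4 and 28.4 points on the left and at 7.72 (v6.5) and 1.68 points (Tet2kd) on the right.

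Methylation was not even along the stretch. In v6.5 BS-seq the mean of the first 6 CpGs was 61.4%, 61.3% and 61.6% C in the 3 cultures, whereas the mean of CpGs 7 to 9 was 29.9%, 31.3% and 32.6%. In Tet2kd BS-seq the first 6 were at 77.9%, 78.6% and 79.6%, and the last 3 at 60.9%, 62.0% and 68.9%. The step along the locus was thus smaller in Tet2kd but ran the same way in every sample. The difference between genotypes was 17.3 percentage points over the first 6 CpGs and 32.7 points over the last 3 in BS-seq. In oxBS-seq it was 24.7 and 35.8 points.

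Each of the 9 CpGs kept its side of the locus mean in all 6 BS-seq samples, which is a comparison within a sample and does not use the contrast between genotypes. The share of C at a CpG, averaged over its strands, was set against the mean of all 9 in the same sample. CpG 3 stood highest, 18.8 ± 6.3 percentage points above the mean (SD, n = 6), and CpG 8 stood lowest, at -17.1 ± 7.0 points. These SDs span both genotypes and are not the scatter between cultures of 1 genotype. Single samples ranged from 11.7 to 25.5 points at CpG 3 and from -25.4 to -8.71 points at CpG 8. CpGs 1, 2, 4 and 6 were above the mean in 6 of 6 samples, by 10.1, 10.5, 5.00 and 4.76 points. CpGs 5, 7 and 9 were below it in 6 of 6, at -4.24, -13.7 and -14.1 points. Every one of the 9 tests gave p = 0.03125 in an exact two-sided sign-flip permutation test over 6 samples, and the same value after Benjamini-Hochberg adjustment. That is the smallest p this test can give, and the 9 deviations sum to 0 in each sample by construction.

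In v6.5 BS-seq the order of the levels, from the highest, was CpG 3, 1, 2, 4, 6, 5, 7, 9 and 8. The values of CpGs 7 and 9 overlapped between cultures, at 33.0% and 32.7% on average, and those of all other neighbours in this order did not. In Tet2kd BS-seq CpG 3 was again the highest and CpG 8 the lowest, but CpGs 6 and 1, 5 and 7, 7 and 9, and 9 and 8 overlapped. The distance between the highest and lowest CpG was 46.2 to 49.9 percentage points in the v6.5 BS-seq samples and 20.4 to 27.0 points in the Tet2kd BS-seq samples. Over the 9 CpGs, which share libraries, the v6.5 and Tet2kd BS-seq means had a Pearson's r of 0.97.

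**Figure D2:**
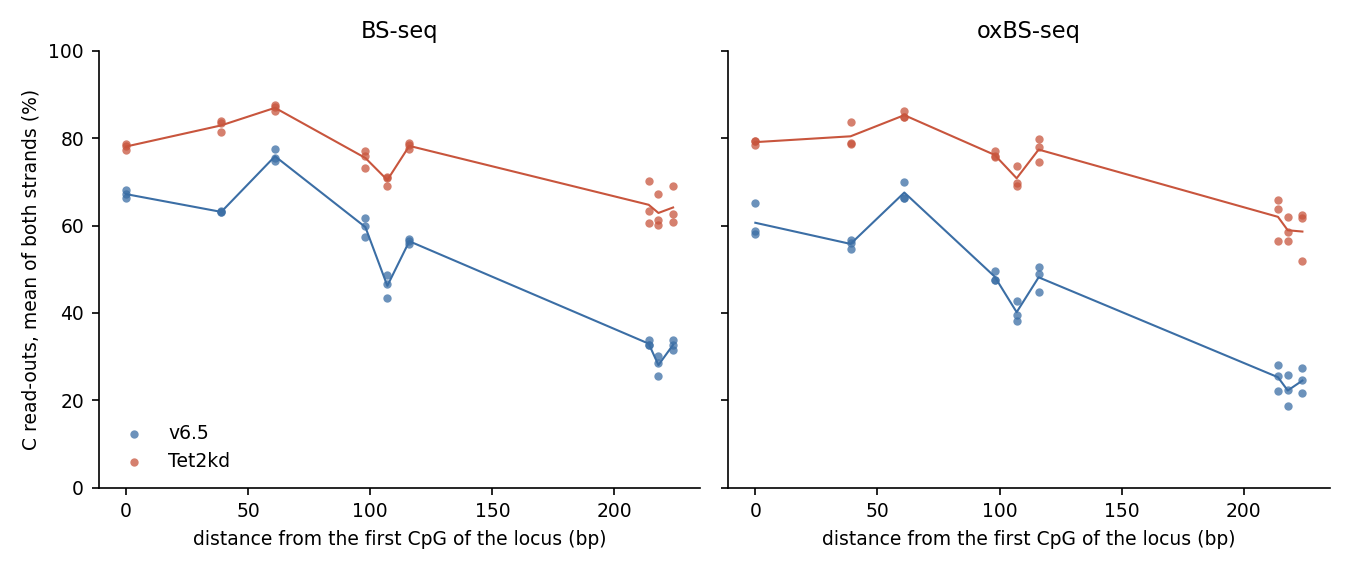
Share of C read-outs (percent, mean of both strands) at the 9 CpGs against the distance from the first CpG in bp, for BS-seq (left) and oxBS-seq (right). Points are single cultures, and lines join the means of 3 v6.5 (blue) or 3 Tet2kd cultures (red). In both panels the red points lie above the blue ones at every CpG, and the gap is widest at the 3 CpGs on the right.

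CpG 3 was the most methylated CpG of the locus. Its plus-strand cytosine is at position 139783699 and its minus-strand cytosine at 139783700. In v6.5 BS-seq it was read as C in 75.4%, 74.7% and 77.4% of read-outs (mean of both strands), and in oxBS-seq in 66.4%, 66.4% and 69.9%. In Tet2kd the 3 cultures had 86.2%, 87.0% and 87.6% in BS-seq and 86.1%, 84.8% and 84.9% in oxBS-seq. All Tet2kd values were above all v6.5 values, and the means differed by 11.1 points in BS-seq and 17.7 points in oxBS-seq.

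CpG 1, with cytosines at 139783638 and 139783639, showed the smallest difference between genotypes in BS-seq, 10.9 points. Its v6.5 cultures were at 67.2%, 66.3% and 68.1% C and its Tet2kd cultures at 78.3%, 77.4% and 78.6%. In oxBS-seq the v6.5 values were 58.1%, 65.1% and 58.8%, and the Tet2kd values 79.4%, 79.4% and 78.4%. The v6.5 culture 2 was thus higher than its fellows here, through its plus-strand cytosine, which was C in 68.5% of read-outs against 54.9% and 56.1% in cultures 1 and 3.

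CpG 8 showed the largest difference in BS-seq, 34.8 points, and the lowest level in v6.5. Its v6.5 cultures were at 25.5%, 28.6% and 30.2% C in BS-seq and 22.3%, 18.6% and 25.9% in oxBS-seq. Its Tet2kd cultures were at 61.4%, 60.0% and 67.3% in BS-seq and 61.9%, 56.4% and 58.5% in oxBS-seq. The groups lay far apart in both assays.

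The minus-strand cytosine of CpG 8, at position 139783857, had the largest Bayes factor of the locus. A Bayes factor (BF) compares the model in which the genotypes have different proportions of the 3 cytosine forms with the model in which they have the same, and values above 1 favour a difference. At this cytosine the v6.5 cultures had 25.9%, 26.7% and 31.4% C by BS-seq, and the Tet2kd cultures 60.6%, 58.0% and 73.8%. By oxBS-seq the v6.5 cultures had 18.5%, 16.1% and 23.0% and the Tet2kd cultures 62.5%, 60.3% and 60.8%. Its BF was 8.21. Its partner on the plus strand, at 139783856, had a BF of 2.14, with 25.2%, 30.5% and 28.9% C in v6.5 BS-seq and 62.1%, 62.1% and 60.7% in Tet2kd BS-seq.

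Of the 18 members, 9 had a BF above 1, against 7.29% of all 384 CpG cytosines. The 9 were the 6 cytosines of CpGs 7, 8 and 9 and the minus-strand cytosines of CpGs 4, 5 and 6. None of the 6 cytosines of CpGs 1 to 3 was among them, and their BFs ranged from 0.0984 to 0.851. BFs above 3 were obtained for 5 members and for 1 of the 366 other cytosines. Without v6.5 culture 2, the v6.5 culture with the lowest oxidation efficiency, 4 of the 18 had a BF above 1, all of them among the 9. As the BF rests on the contrast that selected the locus, these counts are a description.

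The remaining CpGs filled the range between these. In BS-seq the difference between genotypes was 19.8 points at CpG 2, 15.8 at CpG 4, 24.2 at CpG 5, 21.8 at CpG 6, 31.8 at CpG 7 and 31.4 at CpG 9. CpG 5 was lower than its neighbours CpG 4 and CpG 6, at 46.2% C in v6.5 BS-seq against 59.7% and 56.4%, although it lies 9 bp from each, and it is also the only CpG that was thinly covered on both strands. The share of T read-outs, taken in Tet2kd relative to v6.5, varied less than these differences. It was 0.463 to 0.668 over the 9 CpGs in BS-seq, with a median of 0.533, and 0.436 to 0.548 in oxBS-seq, with a median of 0.488.

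C, 5mC and 5hmC were then estimated as proportions with the Lux model, which corrects for incomplete conversion and oxidation with the control DNA spiked into each library. The C fraction holds unmodified cytosine together with 5-formylcytosine and 5-carboxylcytosine, which these assays cannot tell apart. Averaged over the 18 cytosines, 5mC was 41.4%, 33.0% and 42.7% in the v6.5 cultures (39.0% ± 5.3, SD, n = 3). In the Tet2kd cultures it was 69.4%, 68.6% and 68.2% (68.7% ± 0.59, SD, n = 3). The genotypes did not overlap, and the means differed by 29.7 percentage points. The C fraction made up 48.4%, 48.4% and 47.7% in the v6.5 cultures and 25.7%, 25.5% and 23.1% in the Tet2kd cultures, a difference of -23.4 points.

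5hmC was the smallest fraction in both genotypes. It was 10.2%, 18.6% and 9.54% in the v6.5 cultures (12.8% ± 5.1, SD, n = 3) and 4.90%, 5.85% and 8.68% in the Tet2kd cultures (6.47% ± 2.0, SD, n = 3). The highest Tet2kd value lay just below the lowest v6.5 value, and the means differed by -6.29 points. The model keeps every proportion above 0, which can raise low estimates. In the Tet2kd cultures BS-seq minus oxBS-seq was only 0.61, 0.60 and 3.84 points, so their 5hmC values should not be read as measured amounts. By closed-form inversion, which has no such bound, the 5hmC means differed by -9.35 points. The efficiency of oxidation, estimated from control DNA carrying 5hmC, was 0.779, 0.476 and 0.744 in the v6.5 cultures and 0.626, 0.549 and 0.505 in the Tet2kd cultures. These rest on 1 strand of that control, which was picked by its read coverage because the control's sequence was not used here. The uncorrected efficiency of v6.5 culture 2 was 0.443 on that strand and 0.293 over both, and that of Tet2kd culture 3 was 0.438 and 0.292. In every culture the uncorrected value was lower over both strands than on that strand. With the efficiencies of both strands the 5hmC means differed by -6.37 points. The v6.5 culture with the most 5hmC had the lowest efficiency of the 3, and without it the difference was -3.32 points. The paper describes oxidation as more efficient in the knock-down cells than in the parental cells. The estimates made here did not show that order. In the fitted values, cultures 1 and 3 of v6.5 were above every Tet2kd culture, and culture 2 of v6.5 was below them all. In the uncorrected values, culture 3 of Tet2kd was slightly below culture 2 of v6.5. Neither the reason for this disagreement nor the part of the efficiency in the 5hmC values was tested.

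**Figure D3:**
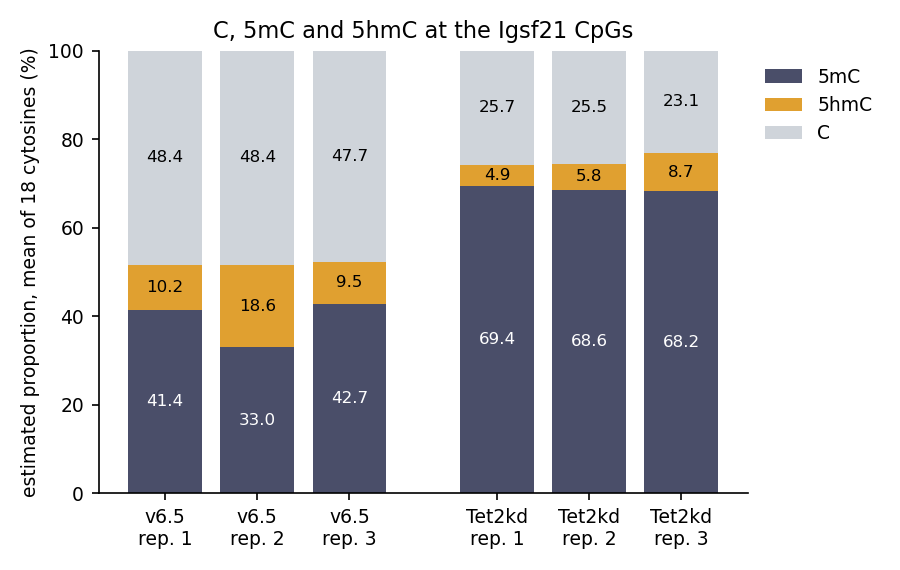
Estimated proportions of 5mC, 5hmC and C (percent, mean over the 18 CpG cytosines of the Igsf21 locus) in each of the 3 v6.5 and 3 Tet2kd cultures. Each bar is 1 culture and adds up to all cytosines. The 5mC part reached 33.0% to 42.7% in v6.5 and 68.2% to 69.4% in Tet2kd, and the 5hmC part 9.5% to 18.6% and 4.9% to 8.7%.

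The CpG means spanned a narrower range in 5hmC than in 5mC. In v6.5 the 9 CpGs ranged from 17.7% (CpG 8) to 63.3% (CpG 3) in 5mC, but only from 10.3% (CpG 1) to 17.6% (CpG 4) in 5hmC. The SD between the v6.5 cultures at a single CpG was 2.25 to 9.83 points in 5hmC, and at the upper end exceeded the span of the 5hmC means, so no order of the CpGs in 5hmC could be read. In Tet2kd the estimated 5hmC of CpGs 1 to 6 was between 2.72% and 5.92%, and that of CpGs 7 to 9 between 9.12% and 13.0%. Averaged over CpGs 7 to 9, the v6.5 cultures had 8.09%, 21.8% and 7.67% and the Tet2kd cultures 7.85%, 9.02% and 14.6%, so the genotypes overlapped there. Over CpGs 1 to 6 they did not, with 11.2%, 17.0% and 10.5% in the v6.5 cultures and 3.42%, 4.26% and 5.71% in the Tet2kd cultures. The bound above 0 applies to all of these estimates. Across CpGs 7 to 9, Tet2kd culture 2, at 9.02% 5hmC, had 62.0% C in BS-seq and 61.3% in oxBS-seq. At single cytosines the estimates scattered more. At position 139783857 the v6.5 cultures had 9.67%, 21.8% and 11.6% 5hmC and the Tet2kd cultures 0.507%, 0.543% and 25.7%.

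BS-seq exceeded oxBS-seq in every culture, as a locus mean. The difference was 7.42, 8.93 and 6.82 percentage points in the v6.5 cultures and 0.61, 0.60 and 3.84 points in the Tet2kd cultures, with a mean of 4.70 ± 3.6 (SD, n = 6). It was positive in 6 of 6 cultures (exact two-sided sign-flip permutation test, p = 0.03125, the smallest possible with 6). On the plus strand alone the mean was 4.25 points and p = 0.0625 by the same exact test, and on the minus strand alone 5.15 points and p = 0.0938.

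The same difference was set against that of the other loci. The median of the 13 other loci was subtracted in each culture, which left 3.06, 5.58 and 2.09 points in v6.5 and -1.40, -0.87 and 0.846 points in Tet2kd. The mean of 1.55 ± 2.6 points (SD, n = 6), positive in 4 of 6 cultures, did not pass the exact two-sided sign-flip permutation test (p = 0.25). In v6.5 the Igsf21 locus had the second largest difference between the assays, 7.72 points, below the locus near Pvt1 (9.77) and above Stag1 (6.88). Averaged over both genotypes, Letmd1 (6.54 points), the locus near Pvt1 (6.33), Stag1 (6.03) and Hsp90ab1 (5.76) had larger differences between the assays than Igsf21 (4.70). These ranks were not tested.

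The cytosines of a CpG lie on opposite strands, and methylation of both is kept up after replication by DNMT1. The strands of the locus were therefore compared within each sample. The plus strand minus the minus strand, averaged over the 9 CpGs, was 2.39, 6.13 and 3.17 percentage points in v6.5 BS-seq and 0.621, 4.59 and -4.54 points in Tet2kd BS-seq. The mean of 2.06 ± 3.7 points did not pass the exact sign-flip permutation test (n = 6, p = 0.21875). In oxBS-seq the values were 7.97, 7.31 and 3.73 points in v6.5 and 5.16, -4.08 and -2.32 points in Tet2kd, with a mean of 2.96 ± 5.0 points (exact sign-flip permutation test, n = 6, p = 0.21875). In both assays the 3 v6.5 samples had more C on the plus strand, while the Tet2kd samples fell on both sides of 0.

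CpG 6, with cytosines at 139783754 and 139783755, had the largest mean strand difference in BS-seq. The plus strand was higher by 7.38, 13.5 and 6.86 points in v6.5 and by 9.35, 9.04 and 2.95 points in Tet2kd, which is 6 of 6 samples. CpG 1 went the other way in 6 of 6 BS-seq samples, with a mean of -4.25 ± 1.7 points. Both had an unadjusted p of 0.03125 in the exact sign-flip permutation test and an adjusted p of 0.141 over the 9 CpGs. No CpG passed after adjustment in either assay, with an unadjusted p under 0.05 for 2 of 9 CpGs in BS-seq and 1 of 9 in oxBS-seq by the same permutation test.

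**Figure D4:**
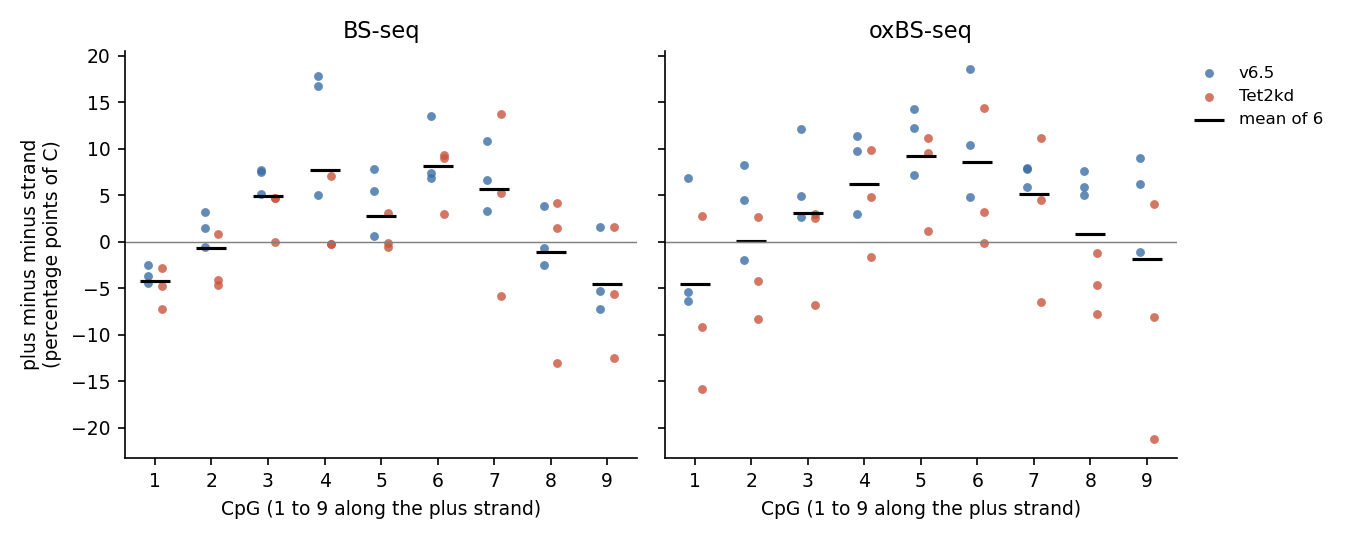
Share of C read-outs on the plus strand minus that on the minus strand (percentage points) at each of the 9 CpGs, in BS-seq (left) and oxBS-seq (right). Points are single samples of v6.5 (blue) and Tet2kd (red), and black bars are means of 6. In BS-seq all 6 points of CpG 6 lie above 0 and all 6 of CpG 1 below it, and Tet2kd samples reach -13.0 points at CpG 8.

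The Tet2kd culture 3 stood apart at CpGs 7 to 9 in BS-seq. On the minus strand the mean of these CpGs was 60.8%, 58.8% and 74.1% C in the 3 Tet2kd cultures, whereas on the plus strand it was 61.1%, 65.2% and 63.6%. In oxBS-seq the corresponding values were 54.4%, 67.3% and 62.9% on the minus strand and 59.0%, 55.4% and 60.1% on the plus strand. The SD between Tet2kd cultures was thus 8.3 points on the minus strand of these CpGs in BS-seq and 6.6 points in oxBS-seq, against 2.4 and 3.9 points in v6.5.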

How the data were processed

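Targeted BS-seq and oxBS-seq of 3 v6.5 and 3 Tet2kd cultures gave 12 samples. According to the paper's methods and the submitters' processing notes, the authors aligned reads with Bismark 0.7.12 and Bowtie2 to mm9 and deposited, for each cytosine, raw counts of read-outs as C and as T, from which all values here were computed. The deposited percent column was not used for any value. Start positions count from 0, so 1 was added, and strand, CpG context and genes came from the mm9 sequence and its GENCODE annotation. Median read-outs over the members were 1127 to 6744.5 per sample.

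Members, lists and tests were chosen with earlier results of these data known. Shares were computed per cytosine and averaged without weights. The Lux model used the priors of the paper, with 26 C, 35 5mC and 27 5hmC control cytosines setting the experimental parameters of each culture, held fixed at their posterior mode. The strand of the 5mC and 5hmC control cytosines was set from read coverage. Proportions were sampled by Markov chain Monte Carlo (1000 warm-up sweeps, then 1000 draws 5 sweeps apart) with a Dirichlet prior of 0.8, in code tested on simulated data. BFs were Savage-Dickey ratios. BS-seq and oxBS-seq of a culture were taken as 1 replicate because its DNA was split. Their deviations from the group means over the 384 CpG cytosines correlated little (r from -0.147 to 0.0505). Samples with different numbers gave r from -0.0729 to 0.119, so these correlations did not show the pairing of the assays by number. That pairing was assumed. Exact sign-flip permutation tests were used because n was 6, with Benjamini-Hochberg adjustment over the 9 CpGs. CpGs described in full were, by rule, that of the cytosine with the largest BF and those with the largest and smallest genotype difference, the highest and lowest v6.5 level and the largest strand difference in BS-seq. CpG 5 and the minus strand of Tet2kd were singled out after their values were seen. A result for 1 other locus is not reported here. Alternatives were single strands, pooled counts, coverage minimums of 100 and 1000, other model settings, the replicate block and leaving out each culture. Python 3.11.15, numpy 2.4.6, scipy 1.17.1 and numba 0.67.0 were used.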

Additional observations from a re-analysis of the deposited data

Results flagged for a closer look

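Among 22 differences measured within samples, between strands or between assays, 1 pointed one way in every v6.5 sample and the other way in every Tet2kd sample. With 22 looked at and 3 samples per genotype, 1 such split can arise without any difference between genotypes. At CpG 8 in oxBS-seq, the plus strand minus the minus strand was 7.57, 4.99 and 5.83 percentage points in the v6.5 cultures (6.13 ± 1.3, SD, n = 3) and -1.17, -7.78 and -4.71 points in the Tet2kd cultures (-4.55 ± 3.3, SD, n = 3). The means were 10.7 points apart, and this difference between genotypes was not tested. In BS-seq the same CpG gave -0.73, 3.82 and -2.51 points in v6.5 and 1.50, 4.13 and -13.0 points in Tet2kd, so the genotypes overlapped there. The ratio of plus to minus median read-outs also differed in oxBS-seq, at 0.836 to 2.01 in v6.5 and 1.19 to 4.40 in Tet2kd, and its part in the result was not tested.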

How the results depend on the processing

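The results that moved by more than the spread between cultures or crossed a threshold were few. With 1 strand only, the oxBS-seq difference between genotypes (28.4 points) became 25.1 (plus) and 31.8 (minus). The change of the C fraction (-23.4) became -21.6 and -25.2. The BS-seq minus oxBS-seq difference became 4.25 and 5.15 points and no longer passed. Leaving out 1 culture at a time, that difference was 3.86 to 5.52 points, and with 5 cultures the exact test cannot go below p = 0.0625. Members with a BF above 1 (9) were 5 with ideal experimental parameters and 5 at a threshold of 3, and 4 to 10 when a culture was left out, the lowest without v6.5 culture 2. The 5hmC difference (-6.29) was -4.38 with ideal parameters, -9.35 by closed-form inversion and -8.01 to -3.32 without a culture. Of the alternatives, 127 were classed as unchanged, 8 as weaker and 7 as moved. The 127 include SDs and values without a test, which could not cross a threshold, so the count does not measure robustness. As a replicate block, the same-numbered differences had an SD of 1.45 points in BS-seq, 1.53 in oxBS-seq, 5.32 for 5mC, 6.02 for 5hmC and 1.04 for C, each with 1 direction in all 3 pairs, and the 18 cytosines stayed higher in all 3 pairs. Same-numbered v6.5 and Tet2kd samples correlated by r between 0.0766 and 0.179 for BS-seq, all above the other-numbered pairs (-0.118 to 0.00605). For oxBS-seq the same-numbered pairs were between -0.175 and 0.093 and the others between -0.172 and 0.281. The numbers were not taken to pair the cultures in the main results. Whether the BS-seq samples share a replicate block was not tested. The Wilson intervals of 5.82 to 20.2 points at 3 thinly covered cytosines limit CpGs 4 and 5.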

Other observations

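The Igsf21 locus also held 161 covered cytosines outside CpG, which took no part in the comparisons above. In embryonic stem cells such cytosines can carry low methylation, mainly before adenine. The paper, however, reports finding neither 5mC nor 5hmC outside CpG in these loci. The mean share of C of the 161 cytosines in BS-seq was 0.419%, 0.381% and 0.341% in the v6.5 cultures and 0.469%, 0.547% and 0.561% in the Tet2kd cultures. Unconverted cytosine also counts in these shares, and the fitted conversion efficiency was 0.9990 to 0.9996. The 53 CpA cytosines had 0.746%, 0.675% and 0.640% C in v6.5 BS-seq and 0.929%, 1.13% and 1.12% in Tet2kd BS-seq, whereas the 53 CpT cytosines had 0.214% to 0.330% and 0.259% to 0.355% and the 55 CpC cytosines 0.176% to 0.211% and 0.216% to 0.228%. CpA exceeded the other cytosines outside CpG by 0.627 ± 0.20 percentage points in BS-seq (SD, n = 6), in 6 of 6 cultures (exact two-sided sign-flip permutation test, p = 0.03125, the smallest possible with 6), a test that was added to the planned ones. The 8 cytosines with the highest BS-seq mean were all CpA, chosen after their values were seen. One of the 8, at position 139783730, had as few as 68 read-outs in a sample and ranged from 0% to 5.13% over the BS-seq samples. The highest of the 8, on the plus strand at position 139783776, was at 3.24% in v6.5 and 4.61% in Tet2kd as BS-seq means. The genotypes were not tested against each other here.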
